A study of Mus musculus with 10 samples.

Results

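The type I interferon response of retinal microglia was followed through 33 genes: the receptor chains, the transcription factors behind the receptor, sensors of foreign nucleic acid, and genes that interferon is known to induce. The members were taken by gene symbol. All 33 were found among the 55487 genes of the count table, and all 33 passed the filter on low counts that left 18957 genes to test. RNA came from viable (DAPI-negative), GFP-positive cells sorted out of the retinas of Cx3cr1GFP/+ mice, and both retinas of an animal went into 1 library. The groups were 4 mice labelled 8wk STZ, 3 labelled 4wk STZ and 3 littermates labelled Control. STZ is streptozotocin, a drug that kills the pancreatic beta cells and so makes mice diabetic. All 10 animals, controls included, carried the GFP reporter in 1 Cx3cr1 allele, and the reporter is active in other myeloid cells besides microglia. Age, sex, strain background, glucose values and library batches are given by none of the sources used here, so age and time after the drug cannot be told apart.

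Type I interferons are secreted proteins that bind a receptor made of the IFNAR1 and IFNAR2 chains. The kinases JAK1 and TYK2 then activate STAT2, which works with IRF9 in a complex that enters the nucleus and binds interferon-stimulated response elements in the promoters of target genes. The targets include antiviral proteins, the sensors that start interferon production, IRF7, which amplifies it, and brakes such as USP18. Microglia both sense and answer type I interferon, and interferon-responsive microglia are known from infection, ageing and neurodegeneration.

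Library totals were 46143178 to 62903489 reads in 8wk STZ, 33266838 to 49051036 in 4wk STZ and 45656309 to 54312248 in Control. Values are CPM, the reads of a gene scaled to a common library size, with TMM factors that correct for differences in library composition. The 10 microglial markers were all present, with summed levels of 31499 to 34089 CPM in 8wk STZ, 35098 to 39099 in 4wk STZ and 39880 to 44574 in Control. The 10 rod photoreceptor markers summed to 2437 to 3394 CPM in 8wk STZ, 3954 to 5702 in 4wk STZ and 8259 to 9251 in Control, and 10 of 10 were called lower in 8wk STZ than in Control, where 2.37% of all genes were called. In the same contrast 4 of the 10 microglial and 2 of the 6 Muller glia markers were called, and 5 of the rod markers were called between 8wk STZ and 4wk STZ, where 0.918% of all genes were. The 8 markers of border macrophages, which also express Cx3cr1, summed to 211 to 913 CPM in 8wk STZ, 298 to 595 in 4wk STZ and 361 to 669 in Control. The 6 plasmacytoid dendritic cell markers summed to 1379 to 1487 CPM in 8wk STZ, 827 to 1183 in 4wk STZ and 713 to 921 in Control, with 1 of 6 called between 8wk STZ and Control. Nearly all of that sum was Siglech, which microglia also express, at 1359 to 1471 CPM in 8wk STZ and 688 to 897 CPM in Control. Of the other 5, Cox6a2, Pacsin1 and Ccr9 were present at low levels, and Ly6d and Klk1 were at or near 0 in every library. The 6 neutrophil markers summed to at most 0.303 CPM. The part of these cells in the results below was not tested, and in bulk RNA fewer cells of a type and less RNA per cell cannot be told apart.

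At 8 weeks the interferon genes stood higher than in Control and in 4wk STZ for most members, yet no single member passed the test. The log2 fold change was above 0 for 31 of 33 members in 8wk STZ against Control, with a median of 0.47, while 49.4% of all tested genes were above 0 with a median of -0.0061. Against 4wk STZ it was above 0 for 32 of 33 members, with a median of 0.47 beside -0.000448 for all genes, of which 50.0% were above 0. Without the second 8wk STZ library it was above 0 for 23 of 33 members in each of these contrasts. In 4wk STZ against Control it was above 0 for 12 of 33 members, with a median of -0.14 beside -0.00388 for all genes, of which 49.6% were above 0. That count was 27 of 33 without the second Control library (median 0.21) and 17 of 33 without the third 4wk STZ library (median 0.0126). The contrasts share libraries, so their medians are not independent. Scaling by library totals alone shifted all genes in 8wk STZ against Control by 0.10, and 32 of 33 members were then above 0, with a median of 0.59. With upper-quartile scaling 30 were above 0 there and 28 against 4wk STZ, with medians of 0.42 and 0.41.

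Members were called at an adjusted p below 0.05 by edgeR's quasi-likelihood test with Benjamini-Hochberg adjustment over all tested genes. By that test 0 of 33 members were called in 8wk STZ against Control (background 2.37% of all genes), 0 in 8wk STZ against 4wk STZ (background 0.918%) and 0 in 4wk STZ against Control (background 0%). The smallest adjusted p among members by edgeR was 0.0843 for Mx1 in 8wk STZ against Control, 0.111 for Mx1 in 8wk STZ against 4wk STZ and 0.651 for Ifit2 in 4wk STZ against Control. At an unadjusted p below 0.05, 7 members were higher in 8wk STZ than in Control, a larger share than the 8.42% of all genes. They were Stat2, Ifi204, Ifi207, Oas2, Mx1, Mx2 and Parp14. At the same level 10 members were higher in 8wk STZ than in 4wk STZ, again a larger share than the 7.18% of all genes: Stat2, Irf7, Zbp1, Oas1a, Mx1, Mx2, Bst2, Ifi44, Ifi27l2a and Xaf1. None was lower in either contrast, and 0 of 33 reached it in 4wk STZ against Control, where 9.75% of all genes did in either direction. The members were chosen with earlier results of these data known and are not independent of each other. These shares are therefore a description, and no test was made of them.

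**Figure D1:**
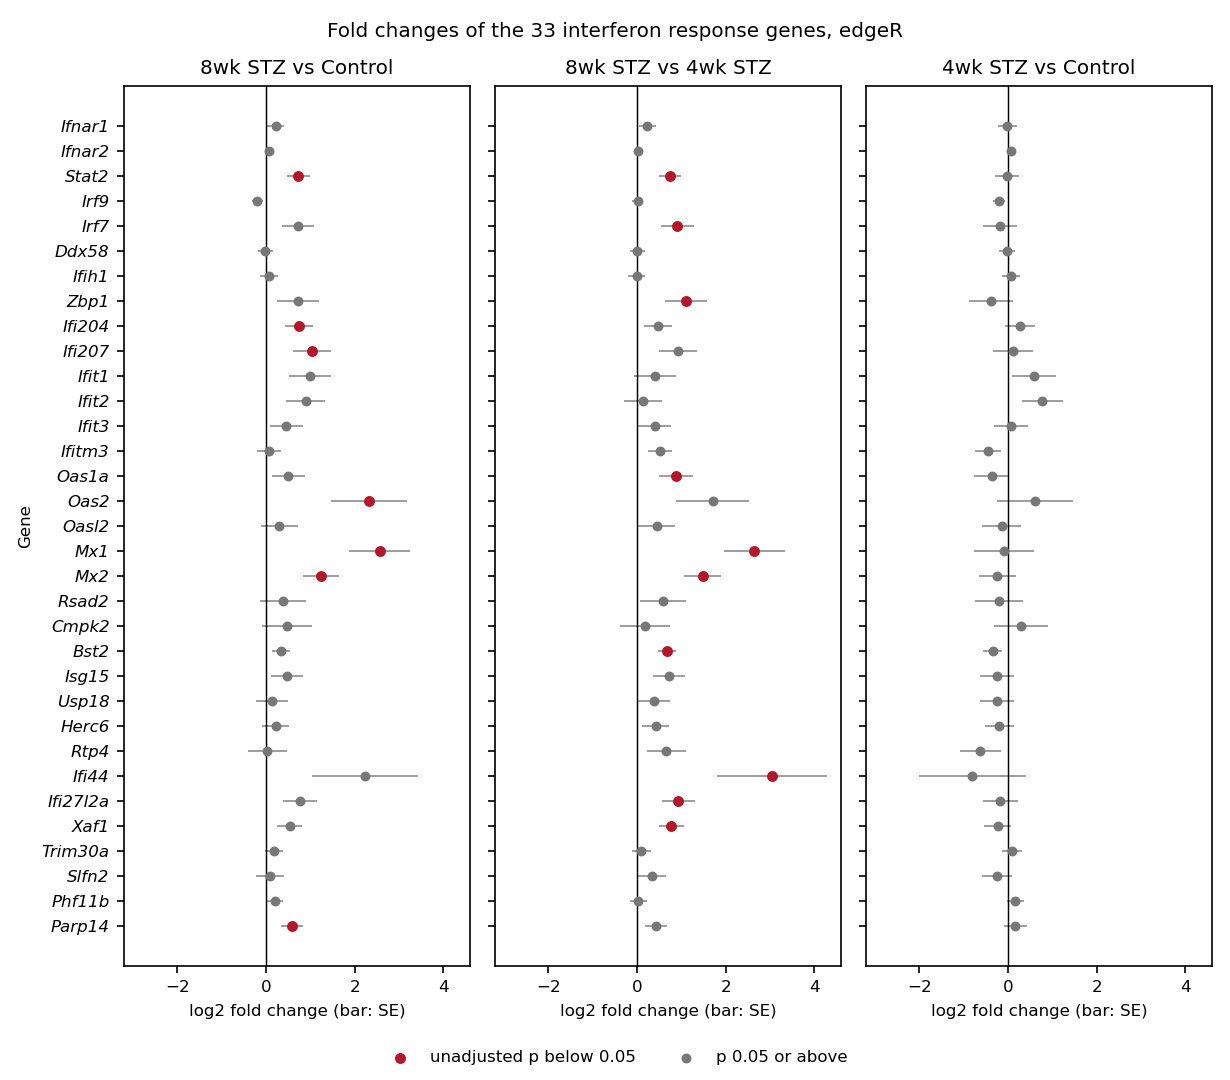
Log2 fold changes of the 33 members from edgeR (points), with SE derived from its F statistic (bars). Panels show 8wk STZ over Control, 8wk STZ over 4wk STZ and 4wk STZ over Control, with members at an unadjusted p below 0.05 in red. In the first 2 panels 31 and 32 of 33 points lie above 0, and in the third 12 do.

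Other tests called a few members. Between 8wk STZ and Control, edgeR's likelihood ratio test called 1 (Mx1; background 6.07%), limma-voom 0 (background 3.19%) and DESeq2 4 (Stat2, Oas2, Mx1 and Mx2; background 8.52%). The authors' deposited table lists Stat2, Oas2 and Mx1 at an FDR below 0.05 for that contrast, 3 of 33 beside a background of 7.29%, and none of the members for 4wk STZ against Control, where the background of the authors' deposited table is 0.801%. Between 8wk STZ and 4wk STZ the likelihood ratio test called 3 (Mx1, Mx2 and Bst2; background 3.95%), limma-voom 0 (background 1.10%) and DESeq2 5 (Stat2, Mx1, Mx2, Bst2 and Ifi44; background 7.10%). For 4wk STZ and Control all 3 called 0, with backgrounds of 1.28% by the likelihood ratio test, 0% by limma-voom and 1.77% by DESeq2.

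For both receptor chains the group means differed by less than the largest SD within a group. Ifnar1 (chr16:91485238-91507441, plus strand, GRCm38), the chain that binds TYK2, had 96.6, 104.0, 85.4 and 95.8 CPM in 8wk STZ, 80.3, 57.9 and 105.6 in 4wk STZ, and 101.1, 66.7 and 78.8 in Control. Ifnar2 (chr16:91372783-91405589, plus strand), the chain that binds JAK1, had 185.7, 177.1, 177.5 and 172.1 CPM in 8wk STZ, 193.6, 154.3 and 182.0 in 4wk STZ, and 161.5, 167.9 and 177.7 in Control. The libraries of all groups overlapped for both chains. The fitted log2 fold change of Ifnar2 in 8wk STZ against Control was 0.08 with an approximate 95% interval of -0.14 to 0.29, and that of Ifnar1 was 0.22 with an interval of -0.25 to 0.68. Per kilobase of exon, the Ifnar2 level was 53.5 ± 1.69 CPM in 8wk STZ (SD, n = 4), 53.1 ± 6.07 in 4wk STZ and 50.8 ± 2.45 in Control (SD, n = 3 each), and the Ifnar1 level was 16.1 ± 1.29 CPM in 8wk STZ, 13.7 ± 4.02 in 4wk STZ and 13.8 ± 2.94 in Control.

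Of the transcription factors behind the receptor, Stat2 and Irf7 stood higher in most 8wk STZ libraries than in 4wk STZ, and Irf9 did not. Stat2 (chr10:128270559-128292849, plus strand), the STAT of the interferon-stimulated complex, had 74.3, 136.5, 64.1 and 99.2 CPM in 8wk STZ, 54.1, 70.1 and 43.3 in 4wk STZ, and 53.6, 67.7 and 48.6 in Control. Only the third 8wk STZ library lay inside the range of Control, and the second was the highest of all. The log2 fold change of Stat2 was 0.72 (SE 0.259, edgeR adjusted p = 0.195) in 8wk STZ against Control and 0.74 (SE 0.259, edgeR adjusted p = 0.232) in 8wk STZ against 4wk STZ. Irf9 (chr14:55603571-55610030, plus strand), the DNA-binding partner of STAT2, had 105.3, 131.3, 111.8 and 146.7 CPM in 8wk STZ, 121.4, 125.2 and 121.8 in 4wk STZ, and 130.6, 162.5 and 132.2 in Control. All 3 4wk STZ libraries lay below all 3 of Control for Irf9, at a log2 fold change of -0.21 (SE 0.136, edgeR adjusted p = 0.697). Irf7 (chr7:141262706-141266481, minus strand), the factor that amplifies interferon production, had 153.5, 251.2, 110.4 and 137.1 CPM in 8wk STZ, 90.8, 108.7 and 61.5 in 4wk STZ, and 59.2, 162.4 and 75.0 in Control. For Irf7 every 8wk STZ library lay above every 4wk STZ library, while the second Control library lay above 3 of the 4 8wk STZ libraries. Its log2 fold change was 0.91 (SE 0.372, edgeR adjusted p = 0.310) in 8wk STZ against 4wk STZ and 0.72 (SE 0.370, edgeR adjusted p = 0.398) against Control.

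Of the sensors, the RNA helicases Ddx58 (RIG-I) and Ifih1 (MDA5) showed log2 fold changes of -0.01 and 0.07 in 8wk STZ against Control and 0.00352 and -0.00411 against 4wk STZ, near 0 in each. The other 3 sensors had higher values at 8 weeks, and none passed the test. Zbp1, a sensor of left-handed nucleic acid that can start necroptosis, averaged 37.6 ± 15.1 CPM in 8wk STZ (SD, n = 4), 17.4 ± 8.57 in 4wk STZ and 22.9 ± 13.3 in Control (SD, n = 3 each), and its 8wk STZ libraries lay above all 4wk STZ libraries. The PYHIN genes Ifi204 and Ifi207, whose family includes sensors of DNA, had log2 fold changes of 0.74 and 1.03 against Control and 0.47 and 0.93 against 4wk STZ. Reads of these near-alike neighbours can be split between them, so their single values are uncertain.

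The Mx genes, of a family that encodes dynamin-like GTPases that block viruses, held the smallest p among members in both 8wk STZ contrasts. The strain background is not given, and whether the Mx alleles of these mice make working protein was not tested. Mx1 (chr16:97447035-97462907, minus strand) had 18.4, 49.4, 19.7 and 22.0 CPM in 8wk STZ, 6.79, 5.72 and 0.498 in 4wk STZ, and 5.88, 3.80 and 4.22 in Control. Each 8wk STZ library lay above every other library, with the second far above the other 3. The log2 fold change of Mx1 was 2.56 (SE 0.686, edgeR adjusted p = 0.0843) against Control and 2.65 (SE 0.689, edgeR adjusted p = 0.111) against 4wk STZ. Without the second 8wk STZ library the Mx1 value against Control was 2.11 (edgeR adjusted p = 0.183), without the second Control library 2.44 (edgeR adjusted p = 0.203), and without the third 4wk STZ library, at 16 reads the lowest, it was 2.56 and passed (edgeR adjusted p = 0.0120). Mx2 (chr16:97535308-97560900, plus strand), which GENCODE vM21 classes as a polymorphic pseudogene, had 5.79, 14.5, 8.89 and 11.5 CPM in 8wk STZ, 5.13, 3.32 and 2.43 in 4wk STZ, and 4.89, 5.45 and 2.53 in Control. The 8wk STZ libraries of Mx2 also lay above all others, the first of them narrowly. Its log2 fold change was 1.24 (SE 0.410, edgeR adjusted p = 0.155) against Control and 1.48 (SE 0.414, edgeR adjusted p = 0.131) against 4wk STZ. Both are low in absolute terms: per kilobase of exon, Mx1 stood at 7.23 ± 3.91 CPM in 8wk STZ (SD, n = 4), 1.15 ± 0.890 in 4wk STZ and 1.22 ± 0.291 in Control (SD, n = 3 each).

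**Figure D2:**
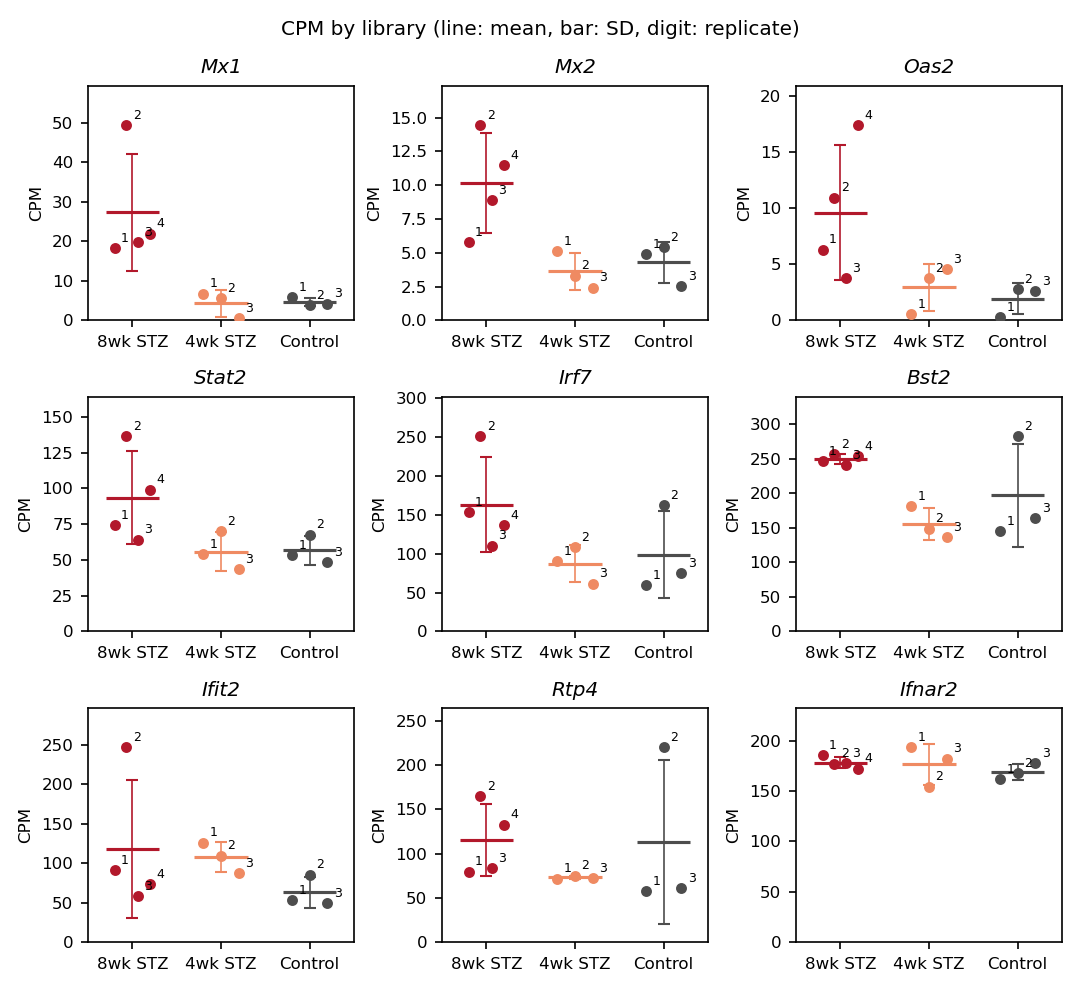
CPM of 9 members by library, with 8wk STZ on the left, 4wk STZ in the middle and Control on the right. Points are libraries with their replicate number, lines are group means and bars are SD. Mx1 and Mx2 separate 8wk STZ from both other groups, Irf7 and Bst2 separate it only from 4wk STZ because Control 2 is high, and Ifnar2 is level.

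Bst2 (chr8:71534255-71537456, minus strand), the tetherin that holds budding viruses at the cell surface, was the member with the second-highest level per kilobase of exon in each group, and its 8wk STZ libraries lay close together (coefficient of variation 2.88%). It had 245.9, 255.9, 240.3 and 253.6 CPM in 8wk STZ, 181.0, 148.6 and 136.2 in 4wk STZ, and 145.1, 282.5 and 163.8 in Control. The 8wk STZ libraries spanned a narrow range above all of 4wk STZ and above Control 1 and 3, while Control 2 was the highest library of all. The log2 fold change of Bst2 was 0.68 (SE 0.201, edgeR adjusted p = 0.153) against 4wk STZ and 0.34 (SE 0.199, edgeR adjusted p = 0.482) against Control, and without Control 2 the value against Control was 0.69 and passed (edgeR adjusted p = 0.0368). Rsad2, the radical-SAM enzyme viperin, and its neighbour on chromosome 12, Cmpk2, a mitochondrial nucleotide kinase, showed another picture. Rsad2 had 18.7, 67.1, 26.1 and 20.9 CPM in 8wk STZ, 31.3, 27.2 and 7.62 in 4wk STZ, and 25.3, 31.2 and 20.1 in Control. Cmpk2 had 11.3, 52.5, 13.5 and 17.0 CPM in 8wk STZ, 32.5, 18.9 and 10.7 in 4wk STZ, and 15.3, 25.5 and 10.1 in Control. For both genes the second 8wk STZ library stood far above the rest, and the other 8wk STZ libraries lay among those of the other groups. The log2 fold changes against Control were 0.38 for Rsad2 and 0.48 for Cmpk2, with approximate 95% intervals of -0.84 to 1.60 and -0.87 to 1.82, and without the second 8wk STZ library both changed sign, to -0.22 for Rsad2 and -0.28 for Cmpk2.

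The OAS genes encode or resemble the enzymes that make 2′-5′ oligoadenylate and so switch on RNase L. Oas2 (chr5:120730333-120749853, minus strand) had 6.31, 10.9, 3.80 and 17.4 CPM in 8wk STZ, 0.581, 3.75 and 4.54 in 4wk STZ, and 0.324, 2.81 and 2.63 in Control. The 8wk STZ libraries lay above all of Control, but the third lay inside the 4wk STZ range. The log2 fold change of Oas2 against Control was 2.32 (SE 0.856, edgeR adjusted p = 0.211), and the lowest Control library held 15 of its reads. Oas1a, which encodes a small enzyme of the family, stood at 65.5 ± 12.5 CPM in 8wk STZ (SD, n = 4), 35.7 ± 9.89 in 4wk STZ and 46.3 ± 28.6 in Control (SD, n = 3 each), and its 8wk STZ libraries did not overlap those of 4wk STZ. Oasl2, an OAS-like gene, had log2 fold changes of 0.30 against Control and 0.44 against 4wk STZ.

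Among the IFIT genes, which encode tetratricopeptide proteins that hold back translation of viral RNA, the second 8wk STZ library stood highest. Ifit1 (chr19:34640871-34650009, plus strand) had 29.6, 70.8, 27.7 and 26.1 CPM in 8wk STZ, 31.0, 39.6 and 16.6 in 4wk STZ, and 25.3, 24.8 and 8.14 in Control. Ifit2 had 91.8, 247.2, 59.0 and 73.9 CPM in 8wk STZ, 126.1, 109.7 and 87.7 in 4wk STZ, and 53.8, 85.9 and 49.9 in Control. Ifit3 had 134.5, 295.5, 102.3 and 122.9 CPM in 8wk STZ, 151.2, 143.1 and 79.5 in 4wk STZ, and 84.4, 153.8 and 118.7 in Control. In all 3 genes the second 8wk STZ library was the highest of the 10, and the other 3 of its group lay within the range of 4wk STZ or, for Ifit2, partly below it. The log2 fold changes in 8wk STZ against 4wk STZ were 0.41 for Ifit1, 0.13 for Ifit2 and 0.39 for Ifit3, and without that library they were -0.07, -0.53 and -0.05. Ifit2 was the member with the smallest p in 4wk STZ against Control, where the groups did not overlap (log2 fold change 0.77, SE 0.463, edgeR adjusted p = 0.651), and Ifit1 in 8wk STZ lay above all of Control (0.99, SE 0.479, edgeR adjusted p = 0.361). Ifitm3, a membrane protein that blocks viral entry, was the highest member per kilobase of exon in each group, at 338 ± 50.3 CPM in 8wk STZ (SD, n = 4), 237 ± 27.3 in 4wk STZ and 324 ± 166 in Control (SD, n = 3 each). In CPM it had 239.0, 253.1, 178.4 and 244.8 in 8wk STZ, 154.4, 181.5 and 146.1 in 4wk STZ, and 130.6, 346.7 and 182.3 in Control, with the second Control library the highest of all.

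ISG15 is a ubiquitin-like protein that is attached to others by enzymes such as HERC6 in mice, and USP18 removes it and also blocks IFNAR2 signalling. Isg15 (chr4:156199424-156200818, minus strand) had 49.5, 85.2, 44.9 and 42.5 CPM in 8wk STZ, 40.6, 38.5 and 21.7 in 4wk STZ, and 20.2, 57.0 and 42.8 in Control. The 8wk STZ libraries all lay above those of 4wk STZ, while Control spanned a range that reached above 3 of them. The log2 fold change of Isg15 was 0.72 (SE 0.366, edgeR adjusted p = 0.424) against 4wk STZ and 0.47 (SE 0.363, edgeR adjusted p = 0.632) against Control. Usp18 had log2 fold changes of 0.13 against Control and 0.38 against 4wk STZ, and Herc6 of 0.22 and 0.42.

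The other induced genes all overlapped between 8wk STZ and Control, and for some of them single libraries stood high. Ifi44, an interferon-induced antiviral gene, had 9.15, 10.4, 2.83 and 1.76 CPM in 8wk STZ, 1.12, 1.04 and 0 in 4wk STZ, and 1.10, 2.61 and 0.136 in Control. It was the scarcest member, with 7 reads in the lowest Control library and none in the third 4wk STZ library, and its log2 fold change was 2.23 against Control (SE 1.19, edgeR adjusted p = 0.421) and 3.04 against 4wk STZ (SE 1.24, edgeR adjusted p = 0.307). Ifi27l2a, a gene of the interferon-induced ISG12 family, had 129.5, 83.0, 114.2 and 153.1 CPM in 8wk STZ, 57.0, 72.9 and 58.3 in 4wk STZ, and 33.3, 127.4 and 51.9 in Control. It was the only member for which the second 8wk STZ library was the lowest of its group. Its log2 fold change against Control was 0.76 (SE 0.380, edgeR adjusted p = 0.383), and 1.49 without Control 2, where it passed (edgeR adjusted p = 0.0361). Rtp4, a chaperone of receptors that also binds viral RNA, had 79.8, 164.7, 84.0 and 132.8 CPM in 8wk STZ, 71.8, 75.2 and 72.5 in 4wk STZ, and 58.0, 220.2 and 60.8 in Control, so its highest library was a control. Xaf1, which opposes the apoptosis inhibitor XIAP, stood at 41.2 ± 7.14 CPM in 8wk STZ (SD, n = 4), 24.1 ± 5.17 in 4wk STZ and 28.5 ± 13.4 in Control (SD, n = 3 each). Trim30a, Slfn2, Phf11b and Parp14 had log2 fold changes of 0.18, 0.08, 0.20 and 0.59 against Control.

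Groups that did not overlap were counted next, as a description only, since the members were chosen with earlier results known and are not independent. Every 8wk STZ library lay above every Control library for 4 members (Ifit1, Oas2, Mx1 and Mx2), a share near the 8.91% of all genes. Every 8wk STZ library lay above every 4wk STZ library for 11 members (Irf7, Zbp1, Oas1a, Mx1, Mx2, Bst2, Isg15, Rtp4, Ifi44, Ifi27l2a and Xaf1), a larger share than the 8.39% of all genes. In 4wk STZ against Control 1 member lay wholly above (Ifit2; background 6.07%) and 1 wholly below (Irf9; background 6.25%).

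Single libraries stood out within each group. The second 8wk STZ library was the highest of the 10 for 20 of 33 members, beside 8.34% of all tested genes, and the second Control library was the highest for 8, beside 11.3%. The third 4wk STZ library and the first Control library were each the lowest for 11 members, beside 14.1% and 9.56% of all genes. Averaged over the members, log2 CPM lay 0.25, 0.95, 0.02 and 0.37 from the mean of all libraries in 8wk STZ 1 to 4, at -0.09, -0.05 and -0.75 in 4wk STZ 1 to 3, and at -0.54, 0.32 and -0.50 in Control 1 to 3. The groups overlapped on this average, since Control 2 lay above 8wk STZ 1 and 3, and the SD between libraries was 0.40 in 8wk STZ, 0.39 in 4wk STZ and 0.48 in Control. The 4wk STZ 3 library, the lowest of its group for 23 members, also had the smallest total of reads, and the part of depth was not tested. Within its own group, 8wk STZ 2 was the highest for 27 of 33 members and Control 2 also for 27 of 33, beside 26.4% and 32.9% of all genes.

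**Figure D3:**
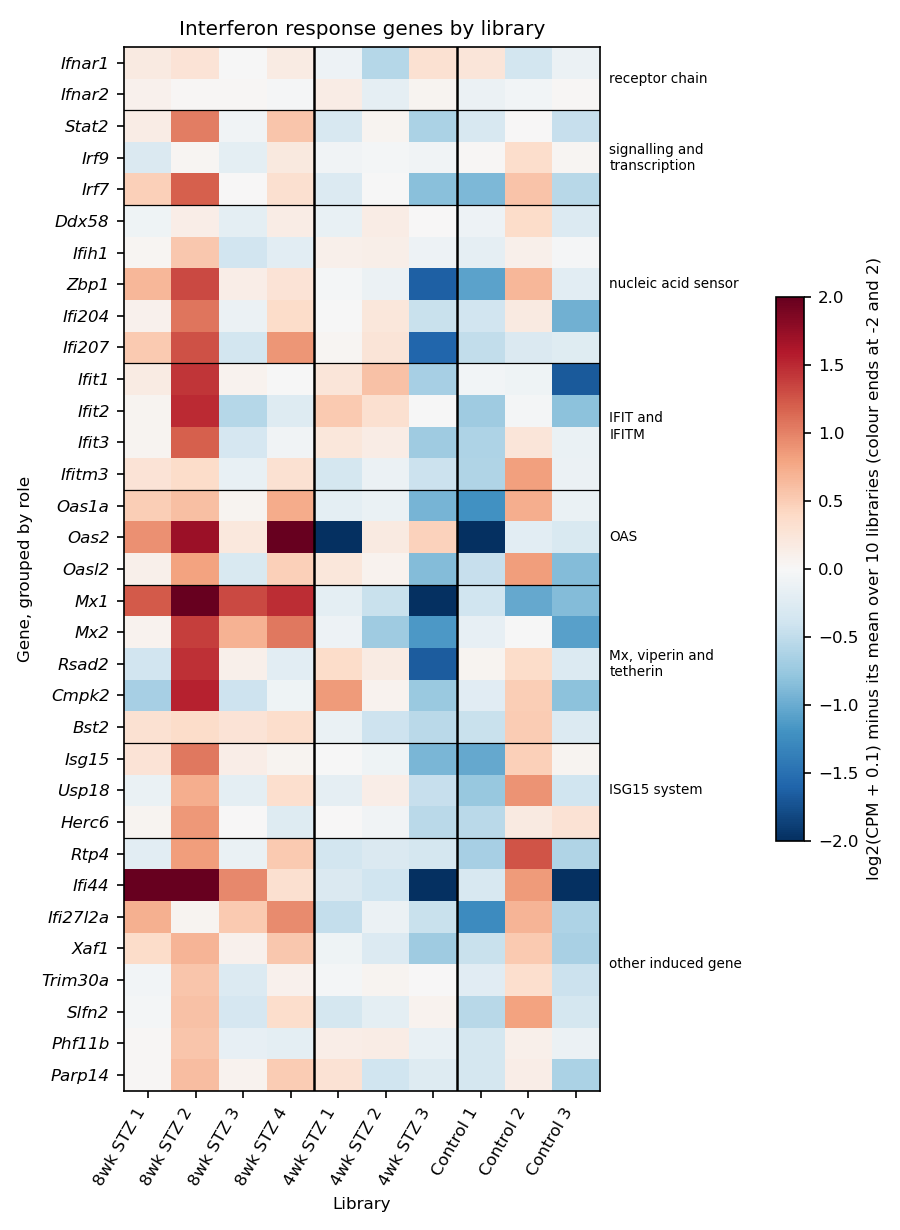
Each row is a member, grouped by role, and each column a library, with 8wk STZ on the left and Control on the right. Colour is log2(CPM + 0.1) minus its mean over the 10 libraries, cut at -2 and 2. The column of 8wk STZ 2 is red for most rows and that of Control 2 for many, while 4wk STZ 3, Control 1 and Control 3 are mostly blue.

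Of the members, 2 were above a ratio of 2 in both libraries that stood high, 5 only in 8wk STZ 2 and 10 only in Control 2. Over the mean of the other libraries of its group, 8wk STZ 2 had a median ratio of 1.64 (range 0.627 to 3.76), against 0.978 for all genes, and Control 2 a median ratio of 1.66 (range 0.741 to 4.21), against 0.961 for all genes. In 8wk STZ 2, 7 members were above a ratio of 2, beside 6.48% of all genes, and in Control 2 there were 12, beside 8.55%. Cmpk2 and Ifi44 were above it in both libraries. Ifit1, Ifit2, Ifit3, Mx1 and Rsad2 were above it only in 8wk STZ 2, where their ratios were 2.55, 3.30, 2.46, 2.47 and 3.06, against 1.48, 1.66, 1.51, 0.753 and 1.38 in Control 2. Irf7, Zbp1, Ifitm3, Oas1a, Oasl2, Usp18, Rtp4, Ifi27l2a, Xaf1 and Slfn2 were above it only in Control 2. Irf7 and Zbp1 lay just below it in 8wk STZ 2, at 1.88 and 1.94. Rtp4 had a ratio of 1.67 in 8wk STZ 2 and 3.70 in Control 2, and Ifi27l2a 0.627 in 8wk STZ 2 and 2.99 in Control 2. The receptor chain Ifnar2 had ratios of 0.993 and 0.990. No test was made of these ratios, since each library is a single animal.

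**Figure D4:**
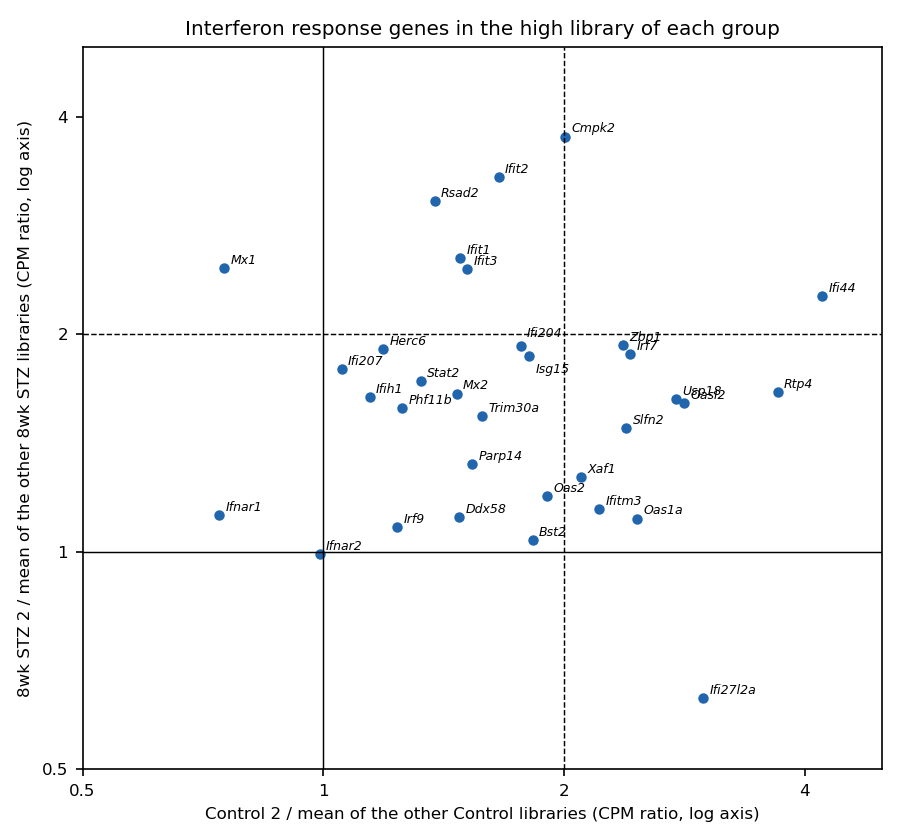
Each point is a member. The vertical axis is its CPM in 8wk STZ 2 over the mean of the other 8wk STZ libraries, the horizontal axis its CPM in Control 2 over the mean of the other Control libraries, both on log axes, with dashed lines at a ratio of 2. IFIT genes, Mx1 and Rsad2 lie above the dashed line of the vertical axis only, and Rtp4, Ifi27l2a, Oas1a and Ifitm3 above that of the horizontal axis only.

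Markers of other cells were read in the libraries that stood high. The border macrophage markers, which include the scavenger receptors Mrc1 and Cd163, summed to 690, 383, 211 and 913 CPM in 8wk STZ 1 to 4, to 348, 595 and 298 CPM in 4wk STZ 1 to 3, and to 669, 361 and 517 CPM in Control 1 to 3, so neither 8wk STZ 2 nor Control 2 was the highest of its group. The rod markers summed to 3394 CPM in 8wk STZ 2 and to 9251 CPM in Control 2, each the highest of its group, against 2437 to 3125 CPM in the other 8wk STZ libraries and 8259 to 8619 CPM in the other Control libraries. The Muller glia markers were instead the lowest of the group in both libraries. They summed to 627 CPM against 677 to 819 for 8wk STZ 2, and to 818 against 1088 and 1228 for Control 2. The endothelial markers were the lowest too, at 15.7 and 19.6 CPM. The microglial sum was the highest of its group for 8wk STZ 2 (34089 CPM) and the lowest for Control 2 (39880 CPM). The monocyte sum was the lowest for 8wk STZ 2 (4.97 CPM) but not for Control 2 (17.7 CPM). The part of these cell types in the interferon values was not tested.

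Leaving out the high libraries moved the medians. The median log2 fold change of the members in 8wk STZ against Control was 0.19 without 8wk STZ 2, 0.87 without Control 2 and 0.64 without both. Against 4wk STZ it was 0.24 without 8wk STZ 2. In 4wk STZ against Control, as given above, its sign turned without Control 2 and without 4wk STZ 3.

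Transcripts of the interferons themselves were scarce. The 18 type I interferon genes of the pathway list that were in the table held 149 reads over the 10 libraries, 139 of them from Ifnb1, which encodes interferon beta. Ifnb1 had 0, 10, 71 and 15 reads in 8wk STZ, 0, 0 and 0 reads in 4wk STZ, and 0, 0 and 43 reads in Control. The libraries with most Ifnb1 reads, 8wk STZ 3 and Control 3, were not those where the members stood high. The 8wk STZ libraries with the highest member averages, 8wk STZ 2 and 8wk STZ 4, had 10 and 15 reads. Control 2 had none, and neither had any 4wk STZ library. Whether Ifnb1 reads and member levels go together was not tested. The count of 0 in Control 2 allows up to 0.0675 CPM by a floor of 3 reads. The floor covers counting error only.

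A wider list of 131 pathway genes outside the members was set beside them, of which 127 were in the table under the symbols used and 107 were tested. Fold changes on the log2 scale were above 0 for 78 of 107 genes in 8wk STZ against Control (median 0.29), for 83 of 107 in 8wk STZ against 4wk STZ (median 0.27) and for 46 of 107 in 4wk STZ against Control (median -0.05). Of the 107, 49 had their highest library in 8wk STZ 2 and 19 in Control 2. With edgeR 1 was called lower and 0 higher in 8wk STZ than in Control, 1 higher and 0 lower in 8wk STZ than in 4wk STZ, and 0 in 4wk STZ against Control. These shares of 107 are below the background of 2.37% and near that of 0.918%, so they say nothing about the list.

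The called pathway genes were Tlr9 and Slfn9. Tlr9, the endosomal receptor for unmethylated DNA, had 11.6, 9.94, 11.8 and 9.94 CPM in 8wk STZ, against 20.9, 17.9 and 24.6 CPM in Control. These groups did not overlap (log2 fold change -0.97, SE 0.199, edgeR adjusted p = 0.0310). In 4wk STZ it had 10.2, 13.9 and 9.39 CPM, also below all of Control, though not called (log2 fold change -0.92, edgeR adjusted p = 0.252). Between 8wk STZ and 4wk STZ the log2 fold change of Tlr9 was -0.05. Slfn9, a Schlafen family gene, rose to 13.1, 26.3, 14.6 and 16.5 CPM in 8wk STZ, against 6.69, 5.30 and 7.53 CPM in 4wk STZ (log2 fold change 1.44, SE 0.284, edgeR adjusted p = 0.0458). Both calls were narrow. That of Tlr9 was lost without any 1 of the 8wk STZ or Control libraries (edgeR adjusted p = 0.0520 to 0.114), and that of Slfn9 without any 1 of the 10 libraries (edgeR adjusted p = 0.0541 to 0.143) and with limma-voom (adjusted p = 0.0605). The receptor kinase Jak1 averaged 281 ± 20.3 CPM in 8wk STZ (SD, n = 4), 347 ± 29.8 in 4wk STZ and 297 ± 26.4 in Control (SD, n = 3 each). Tyk2 averaged 67.5 ± 9.81 CPM in 8wk STZ, 47.2 ± 4.97 in 4wk STZ and 55.3 ± 8.76 in Control, and neither kinase passed in any contrast.

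The promoters of the members were searched for the core of the interferon-stimulated response element, GAAANNGAAA, on both strands, in the RefSeq windows of build GRCm38.p6 that run from 250 bases before to 50 bases after each transcription start. Matches that overlap each other were counted separately. The windows covered 24 of the 33 members, and Mx1, Mx2, Oas2, Parp14, Usp18, Ifi27l2a, Ifi204, Rtp4 and Zbp1 were not searched. The motif was found in 13 of these 24 members, in 14 of their 27 windows (51.9%), beside 3.44% of all 32851 windows. The members with a match were Stat2, Ddx58, Ifih1, Ifi207, Ifit1, Ifit3, Ifitm3, Oas1a, Rsad2, Bst2, Isg15, Trim30a and Phf11b. Both receptor chains, Irf9, Irf7, Ifit2, Oasl2, Cmpk2, Herc6, Ifi44, Xaf1 and Slfn2 held no match to these letters in these windows. A match is a description of the letters and not evidence of binding.

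Promoters of 5 members with matches before the start are shown for members described above, as the 250 bases before the start, read 5′ to 3′ on the strand of the gene, with each match in capitals. Isg15 is chr4:156200819-156201068 (minus strand) and holds 3 overlapping matches, Ifit1 is chr19:34640639-34640888 (plus strand) with 2, Bst2 is chr8:71537473-71537722 (minus strand) with 2 that overlap, Stat2 is chr10:128270248-128270497 (plus strand) with 1, and Oas1a is chr5:120907526-120907775 (minus strand) with 2 that overlap.
Isg15: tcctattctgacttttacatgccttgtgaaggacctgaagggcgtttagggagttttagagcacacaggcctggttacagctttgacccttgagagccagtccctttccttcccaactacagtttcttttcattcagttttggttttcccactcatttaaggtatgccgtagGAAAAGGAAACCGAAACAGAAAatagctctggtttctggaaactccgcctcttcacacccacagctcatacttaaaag
Ifit1: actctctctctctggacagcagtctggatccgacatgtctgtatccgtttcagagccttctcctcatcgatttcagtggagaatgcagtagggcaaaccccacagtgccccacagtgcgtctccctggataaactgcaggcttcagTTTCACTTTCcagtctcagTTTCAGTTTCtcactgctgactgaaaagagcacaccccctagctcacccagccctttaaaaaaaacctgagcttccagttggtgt
Bst2: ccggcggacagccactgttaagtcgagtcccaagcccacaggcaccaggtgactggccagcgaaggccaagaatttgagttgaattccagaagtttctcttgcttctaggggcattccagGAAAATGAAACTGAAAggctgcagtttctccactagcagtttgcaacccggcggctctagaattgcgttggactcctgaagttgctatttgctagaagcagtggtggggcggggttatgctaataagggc
Stat2: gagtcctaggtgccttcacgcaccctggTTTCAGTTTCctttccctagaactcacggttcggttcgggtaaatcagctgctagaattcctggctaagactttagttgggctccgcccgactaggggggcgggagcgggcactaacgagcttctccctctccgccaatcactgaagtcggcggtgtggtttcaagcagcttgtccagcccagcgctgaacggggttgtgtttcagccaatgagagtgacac
Oas1a: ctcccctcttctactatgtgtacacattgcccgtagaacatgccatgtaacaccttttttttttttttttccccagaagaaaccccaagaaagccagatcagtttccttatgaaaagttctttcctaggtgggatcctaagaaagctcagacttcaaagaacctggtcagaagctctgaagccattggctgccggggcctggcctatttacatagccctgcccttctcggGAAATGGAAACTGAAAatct
Capitals that begin with TTTC are matches on the strand opposite to the gene. The promoters of Isg15, Bst2 and Oas1a each carry the element as a run of overlapping copies, first bases at -78, -72 and -66, at -130 and -124, and at -20 and -14 from the start, while the pair in Ifit1 lies at -104 and -85 without overlap and the copy in Stat2 lies far out at -222.

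**Figure D5:**
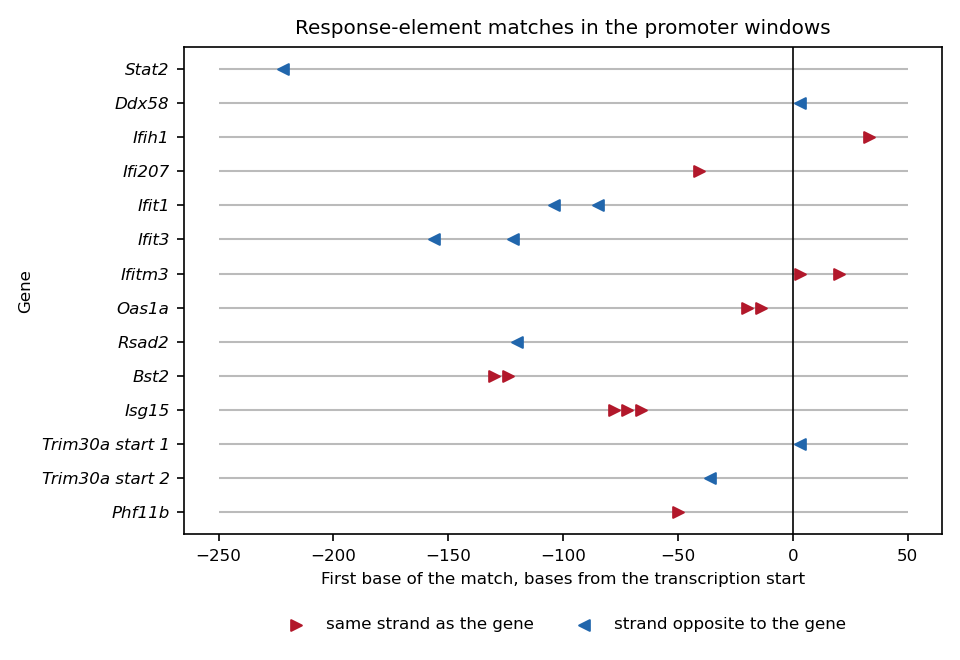
Grey lines are the promoter windows of the 13 members with a match, Trim30a with 2 starts, along the distance in bases from the transcription start. Triangles mark the first base of each match, red pointing right for the strand of the gene and blue pointing left for the other. Most matches lie before the start, and those of Ddx58, Ifih1, Ifitm3 and the first Trim30a start lie after it.

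Some member values are uncertain because the library kit does not mark strand and reads that fit near-identical genes may be split. This holds for Ifit3 with Ifit3b, Oas1a with Oas1g, Ifi204 with Ifi207, Trim30a with Trim30d, and Phf11b with the other Phf11 genes. Exonic overlap with another gene was found for 7 members, at 13.9% of the exonic sequence of Rtp4 (Gm45338), 13.7% of Herc6 (Gm45193), 9.46% of Ifnar2 (Gm21970), 4.44% of Usp18, 2.28% of Irf9, 1.19% of Irf7 and 1.18% of Parp14. The overlaps of Usp18 and Irf7 lie on the opposite strand. The others lie on the same strand, so a kit that marks strand would not separate their reads.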

How the data were processed

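Per the file headers, the deposited table holds raw read counts per gene, and a second deposited table holds the authors' log2 fold changes, likelihood ratio score, p-values and FDR against Control. Tools listed in the submitters' processing notes are STAR, featureCounts (Subread), Salmon, bcl2fastq, limma and edgeR, with build GRCm38. How strand and multiply mapped reads were handled is not stated in those notes or in the labels. After 287 repeated entries were dropped from 55774, edgeR 4.0.16 (R 4.3.3) was used for TMM scaling, filterByExpr and a model with a mean for each group of all 10 libraries. It left 7 residual degrees of freedom, its biological coefficient of variation was 0.564, and contrasts were tested by robust quasi-likelihood with Benjamini-Hochberg adjustment at 0.05. The SE was derived as the absolute log2 fold change over the square root of the F statistic. Approximate 95% intervals used a t distribution with 7 degrees of freedom. They can therefore include 0 where the unadjusted p is below 0.05. Alternatives were DESeq2 1.42.0, limma-voom (limma 3.58.1), edgeR's likelihood ratio test, other scalings and filters, and left-out libraries. The log2 offset for library averages was a prior count of 2. No libraries of a group were alike within sampling noise (chi-square over degrees of freedom of 48.2 or more). Coordinates and exon lengths are from GENCODE vM21 (GRCm38), and promoters from RefSeq. The members, roles, pathway and marker lists were chosen with earlier results of these data known. Every-library values are given for both receptor chains, Stat2, Irf9, Irf7, the 3 members of smallest p per contrast, members called under any test and members that stood apart in 1 library. Rtp4 and Ifi27l2a were added after their values were seen. A gene of the pathway list is not reported here.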

Additional observations from a re-analysis of the deposited data

Results flagged for a closer look

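In 6 of 33 members, 1 of the 4 8wk STZ libraries lay apart from the other 3 by Dixon's criterion at the 95% level (its gap to the nearest, over the range of the group), and it was replicate 2, the highest, each time. Its CPM was 49.4 for Mx1, 70.8 for Ifit1, 295.5 for Ifit3, 67.1 for Rsad2, 52.5 for Cmpk2 and 85.2 for Isg15. The nearest library of the group stood at 22.0 CPM for Mx1, 29.6 for Ifit1, 134.5 for Ifit3, 26.1 for Rsad2, 17.0 for Cmpk2 and 49.5 for Isg15. At its nominal level, which assumes normally distributed values, the criterion flags about 1 group in 20, or 1.65 of 33. The members are not independent of each other, and the share flagged among all tested genes was not counted. The number of flags is therefore not read as a result about the members. Groups of 3 libraries were not examined this way. Why this library stood apart was not tested.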

How the results depend on the processing

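With 3 or 4 animals a group, no member passed the main test, and the number called depended on the tool. For 8wk STZ and Control, where 0 members were called, DESeq2 called 4, edgeR's likelihood ratio test 1, the fit of only those groups 1 and the fit without Control 3 and 4wk STZ 3 called 1. Leaving out 1 library at a time called 0 to 2, and leaving out both 8wk STZ 2 and Control 2, chosen after seeing the data, called 1 (Ifi27l2a). For 8wk STZ and 4wk STZ, where 0 were called, DESeq2 called 5, the likelihood ratio test 3, the 2-group fit 1 and the fits without 1 library 0 to 1. Over the 20 alternatives of each contrast, 11 of 33 members changed sign at least once in 8wk STZ against Control, 11 in 8wk STZ against 4wk STZ and 26 in 4wk STZ against Control. In 8wk STZ against Control these were Ddx58, Ifih1, Ifitm3, Oasl2, Rsad2, Cmpk2, Usp18, Herc6, Rtp4, Trim30a and Slfn2, and the farthest values were -0.29 for Rtp4 (0.03) and -0.21 for Ifitm3 (0.06) without Control 1, and -0.28 for Cmpk2 (0.48) and -0.22 for Rsad2 (0.38) without 8wk STZ 2. In 8wk STZ against 4wk STZ they were Ifnar2, Irf9, Ddx58, Ifih1, Ifit1, Ifit2, Ifit3, Rsad2, Cmpk2, Trim30a and Phf11b, and without 8wk STZ 2 Cmpk2 (0.18) was at -0.57, Ifit2 (0.13) at -0.53 and Rsad2 (0.59) at -0.01. In 4wk STZ against Control, Stat2 (-0.02) turned to 0.00048 with limma-voom, to 0.034 without Control 3 and 4wk STZ 3, and to 0.13 without 8wk STZ 2 and Control 2. The first of these omissions turned Mx1 (-0.09) to 0.37, and the second turned Irf7 (-0.18) to 0.38, Ifitm3 (-0.45) to 0.040 and Bst2 (-0.34) to 0.0088. Without 1 library, the 4wk STZ against Control values ran from -0.25 to 0.18 for Ifnar1, -0.010 to 0.15 for Ifnar2, -0.22 to 0.13 for Stat2, -0.45 to 0.37 for Irf7, -0.72 to 0.035 for Ifitm3, -0.56 to 0.43 for Mx1 and -0.53 to 0.0049 for Bst2. In 8wk STZ against 4wk STZ, Ifnar2 (0.01) turned to -0.050 with upper-quartile scaling and -0.0019 with DESeq2, and Irf9 (0.01) to -0.053, -0.0020, -0.0026 and -0.014 with upper-quartile scaling, DESeq2, limma-voom and without 8wk STZ 2 and Control 2. Without 1 library they ran from -0.075 to 0.086 for Ifnar2 and from -0.080 to 0.087 for Irf9. The cause of these turns was not tested. Over the whole table, genes called in 8wk STZ against Control numbered 449, against 1451 with DESeq2, 1151 by the likelihood ratio test, 275 and 91 without the 2 pairs of libraries, and 206 to 462 without 1 library. In 8wk STZ against 4wk STZ they numbered 174, against 1004, 749, 277 with no filter, 100 in the 2-group fit, 6 and 10 without the pairs, and 13 to 118 without 1 library, and in 4wk STZ against Control 0, against 314, 243 and 12 with no filter. The 0 reads of Ifi44 in 4wk STZ 3, the library with the fewest reads, allow up to 0.0933 CPM by a floor of 3 reads.

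Over all tested genes, no shared signal by replicate number was seen. For 9 pairs with the same number, deviations from the group means correlated at -0.03 to 0.03. This correlation was not computed for the members alone. Their average log2 deviation was highest in replicate 2 of each group, at 0.95 in 8wk STZ, -0.05 in 4wk STZ and 0.32 in Control. In 4wk STZ the lead was narrow, with replicate 1 at -0.09. Whether the members share a signal by replicate number was not tested. Pairing of animals by anything other than these numbers was not tested. With the replicate number as a block, which leaves out 8wk STZ 4, 0 members were called in each contrast, the whole table gave 37 calls in 8wk STZ against Control and 0 in 8wk STZ against 4wk STZ, and Irf9 in 8wk STZ against 4wk STZ was at -0.088.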
